A study of Homo sapiens with 6 samples.

Results

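A set of 9 Hedgehog pathway genes was followed in RNA sequencing of the human embryonic kidney line HEK293: the receptor gene PTCH1, the co-receptor genes BOC and CDON, SMO, GPR161, SUFU, and the transcription factor genes GLI1, GLI2 and GLI3. They were chosen by symbol, and all 9 were present among the 30960 genes of the expression table and among the 14275 genes tested. PKI cells carried a plasmid for GFP fused to PKI1-24, and inPKI cells, the control in the labels, a plasmid for GFP fused to inPKI1-24. RNA was taken after 48 h in both groups. The treatment protocol gives a lipid-based transfection with 158 ng of plasmid per square centimetre, while the design text calls the cells transduced. Each group held 3 libraries, A, B and C. The design text speaks of triplicates but does not say whether separate cultures were used, and every p-value given here reflects no more than library-to-library spread, possibly technical. The cells were a population of 1 line, and the share that took up plasmid was not analysed here.

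Hedgehog ligands bind PTCH1, which otherwise holds the membrane protein SMO inactive, and the co-receptors BOC and CDON present ligand to PTCH1. Without ligand, the kinase that cAMP activates, PKA, phosphorylates GLI2 and GLI3 and starts their conversion to repressors, while SUFU binds GLI proteins and retains them. GPR161 is an orphan receptor of the primary cilium that raises cAMP there and restrains the pathway. Active GLI proteins switch on GLI1 and PTCH1, so the RNA of these genes is a common readout of the pathway. PKI proteins bind the catalytic subunit of PKA and block it.

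The genes of the expression table held 17244715 to 23589438 reads in PKI libraries and 18707086 to 21387137 in inPKI libraries. These reads were recovered from the deposited CPM values (reads multiplied by a scaling factor of each library). The CPM values summed to 754299 to 785007 in PKI and 773801 to 783589 in inPKI, so the totals were unequal. The gene of the alpha form of PKI, PKIA, separated the groups by their labels, with 42.3 to 46.1 CPM in PKI and 8.65 to 11.3 CPM in inPKI; reads from the plasmid and from the cells' own gene cannot be told apart in gene counts. All 10 HEK293 markers looked at (among them VIM, NEFM and PAX2) were tested. Their summed level was 802 to 919 CPM in PKI and 907 to 931 CPM in inPKI. Most of it was VIM, at 560 to 640 CPM in PKI and 629 to 652 CPM in inPKI. PAX2 was low, at 0.787 to 1.29 CPM in PKI and 0.579 to 1.31 CPM in inPKI. The lowest sum was that of PKI C, which also had 6.38% of its reads in its 10 most abundant genes, against 4.82% to 4.93% in the other PKI libraries and 4.65% to 4.86% in inPKI. Fibroblast markers summed to 19.4 to 22.8 CPM in PKI and 18.9 to 21.0 CPM in inPKI, nearly all of it COL1A1, with DCN at 0. Leukocyte markers summed to 1.40 to 2.03 CPM in PKI and 1.28 to 1.79 CPM in inPKI, with CD3E at 0, and 4 differentiated nephron markers in the table to 11.2 to 14.5 CPM in PKI and 10.4 to 11.7 CPM in inPKI, nearly all of it LRP2. Keratinocyte markers summed to 26.1 to 30.7 CPM in PKI and 28.9 to 54.1 CPM in inPKI. The highest value was that of inPKI C, where KRT5 was at 26.5 CPM, against 9.84 to 12.2 CPM in PKI and 13.2 and 10.2 CPM in inPKI A and B. Values without PKI C or inPKI C are therefore given beside some of the 9 genes, and the span over all libraries left out is given further on.

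GPR161 was 20.2% higher on average in PKI than in inPKI, and the means of the other 8 genes differed by less; neither it nor they passed the adjusted threshold. For 7 of the 9 genes the PKI and inPKI libraries overlapped. In limma, 0 of the 9 passed an adjusted p of 0.05, where 0.126% of all tested genes did. At an unadjusted p below 0.05, 1 was higher in PKI (GPR161) and 0 were lower, against 7.53% and 6.16% of all tested genes. The PKI libraries all lay above the inPKI libraries in 2 of the 9 (GPR161 and PTCH1), against 10.9% of all tested genes, and all below in 0, against 8.88%. The log2 change, PKI minus inPKI on log2(CPM + 1), was above 0 in 6 genes and below 0 in 3, where 47.4% of all tested genes were above 0; under the scaling alternatives only SMO turned its sign, with libraries rescaled to an equal sum (0.00091). The median over the 9 genes was 0.054, and over all tested genes -0.0074. On the recovered reads, edgeR called 0 of the 9, where it called 0.0771% of all genes. DESeq2 gave an adjusted p to 3 of the 9 (GLI3, SMO and SUFU) and called 0, where it called 3.88% of the genes with an adjusted p. Either tool placed 1 of the 9, GPR161, at an unadjusted p below 0.05.

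**Figure D1:**
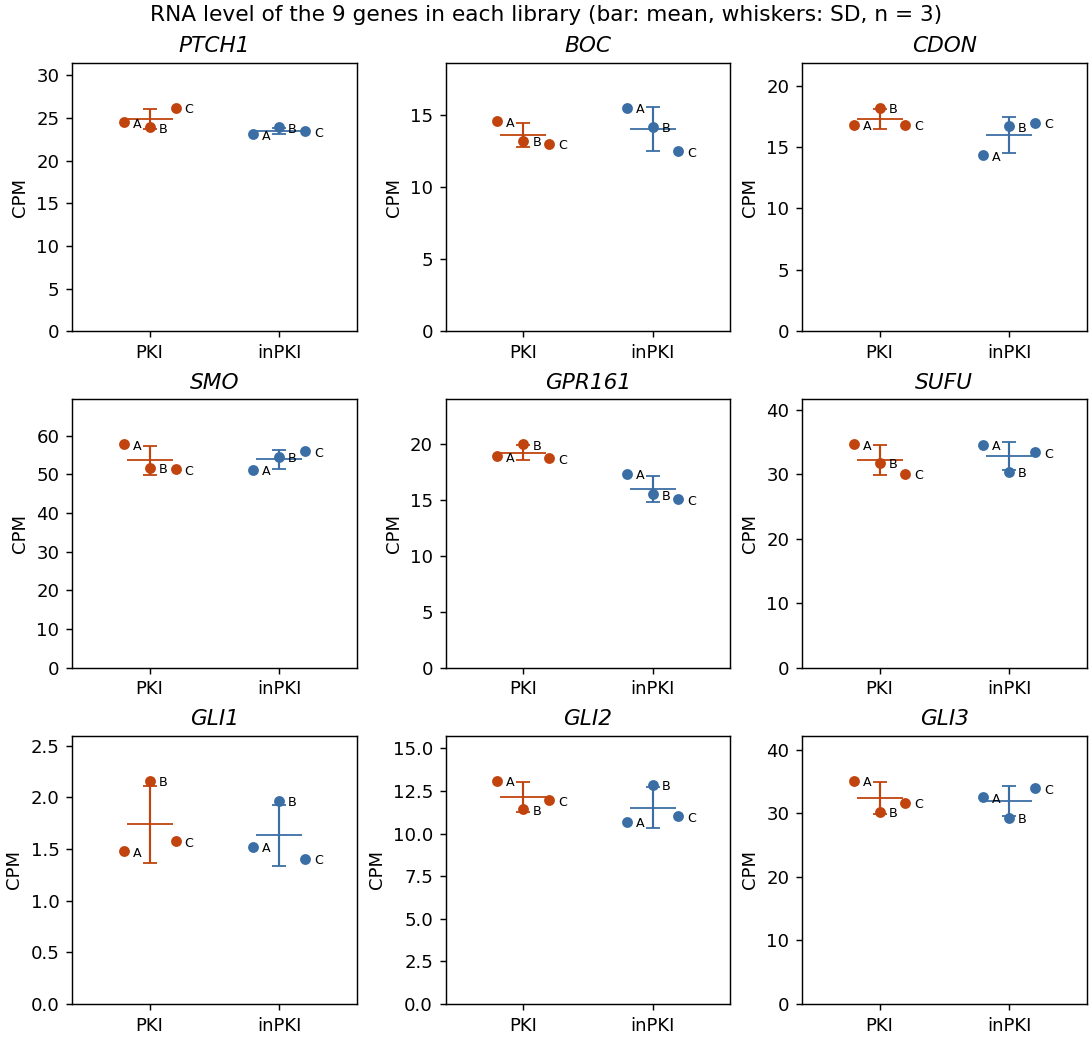
RNA level (CPM, linear axis from 0) of the 9 genes in each library, PKI left and inPKI right; points are libraries A, B and C, bars the mean and whiskers the SD (n = 3). The groups are separate for GPR161 and, by a narrow margin, for PTCH1, and overlap for the other 7 genes.

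The 9 genes have long transcripts, and change ran with transcript length in these libraries. Their longest transcripts have 3613 to 9138 bases in GENCODE 29. Among the 5522 tested genes within that range the median log2 change was 0.028, 62.7% were above 0, and the groups separated with PKI above in 14.9%. Among the 7946 shorter genes the median was -0.050, 33.0% were above 0 and 4.51% separated with PKI above. Values with the trends of length and GC content removed are given beside PTCH1, CDON, GPR161, GLI2 and GLI3. With these trends removed, the log2 change was -0.051 for SUFU, -0.062 for BOC, -0.017 for SMO and 0.052 for GLI1.

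PTCH1, the ligand receptor and a direct GLI target, lies on the minus strand of chromosome 9 (95442980 to 95517057, GRCh38). One of its RefSeq start windows is printed because it holds the letters to which GLI proteins bind, GACCACCCA, here on the other strand as TGGGTGGTC and in capitals. The window is chr9:95509217-95509516 (GRCh38.p14, minus strand, read 5′ to 3′), and the match begins at position -172 from that annotated start.

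PTCH1: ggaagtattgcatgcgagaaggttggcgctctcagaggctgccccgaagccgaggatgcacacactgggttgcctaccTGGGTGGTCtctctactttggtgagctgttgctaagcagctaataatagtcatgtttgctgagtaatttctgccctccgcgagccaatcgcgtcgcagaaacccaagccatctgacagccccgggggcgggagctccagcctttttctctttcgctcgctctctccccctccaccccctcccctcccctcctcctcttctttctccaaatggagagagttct

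Those 9 letters, searched on both strands, were in 83 of 35116 RefSeq start windows of 300 bases, or 0.236%. Of the 19 windows of these genes, 1 held them; GLI1 and GLI3 had no window in the table. A match of letters is a description and not a measured site. The cAMP response element TGACGTCA, through which PKA acts by the factor CREB, was in 0 of the 19 windows and in 1.85% of all windows.

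PTCH1 was at 24.5, 23.9 and 26.2 CPM in PKI A, B and C, against 23.1, 23.9 and 23.5 CPM in inPKI A, B and C. Each PKI library lay above each inPKI library, but PKI B and inPKI B were almost level. The means were 24.9 ± 1.18 CPM in PKI and 23.5 ± 0.3998 CPM in inPKI (SD, n = 3 each), a difference of 5.93%. PTCH1 had a log2 change of 0.079 ± 0.065 (SE), with a 95% interval of -0.059 to 0.22 and a limma adjusted p of 0.607. With the trends of length and GC content removed it was 0.0022, and without PKI C it was 0.042. PTCH1 shares 645 exonic bases with the antisense gene AL161729.1, itself at a mean of 0.704 CPM, and whether the counting used strand is not given in the sources used here.

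The co-receptor genes did not separate the groups. BOC (chromosome 3, 113211003 to 113287459, plus strand) was at 14.6, 13.2 and 13.03 CPM in PKI A, B and C, against 15.5, 14.2 and 12.5 CPM in inPKI A, B and C. Library A was the highest in both groups, and the groups overlapped. The log2 change was -0.040 ± 0.089 (SE, 95% interval -0.23 to 0.15, limma adjusted p = 0.872). Without inPKI A it turned to 0.029, and without inPKI C it was -0.12.

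CDON (chromosome 11, 125955796 to 126063335, minus strand) was at 16.8, 18.2 and 16.8 CPM in PKI A, B and C, against 14.3, 16.7 and 17.0 CPM in inPKI A, B and C. The lowest library was inPKI A, and the other 5 lay close together. CDON had a log2 change of 0.11 ± 0.081 (SE, 95% interval -0.066 to 0.28, limma adjusted p = 0.575). Without inPKI A it was 0.034, without PKI B 0.071, and without inPKI C 0.15. CDON shares 2831 exonic bases with VSIG10L2 on the other strand, which is listed at 0 in all 6 libraries. With length and GC trends removed the change of CDON was 0.018.

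SMO, the transducer that PTCH1 restrains, lies on the plus strand of chromosome 7 (129188872 to 129213545). Its start window, chr7:129188383-129188682 (GRCh38.p14, plus strand), is printed as the 1 window of the 19 with the short core of the cAMP response element, TGACG, in capitals at position -114 from the start. Searched on both strands, that core was in 24.6% of all windows, and every window with TGACGTCA holds it too.

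SMO: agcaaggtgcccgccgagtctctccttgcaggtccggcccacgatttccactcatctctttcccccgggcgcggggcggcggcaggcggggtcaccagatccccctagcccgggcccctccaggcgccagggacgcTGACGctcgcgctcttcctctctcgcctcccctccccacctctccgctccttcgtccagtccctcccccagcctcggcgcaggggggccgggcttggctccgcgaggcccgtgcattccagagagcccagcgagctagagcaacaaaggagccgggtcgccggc

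SMO was at 57.8, 51.6 and 51.3 CPM in PKI A, B and C, against 51.1, 54.5 and 55.9 CPM in inPKI A, B and C. PKI A was the highest and inPKI A the lowest of the 6 libraries. The means were 53.6 ± 3.65 CPM in PKI and 53.9 ± 2.46 CPM in inPKI (SD, n = 3 each). The log2 change was -0.0085 ± 0.062 (SE, limma adjusted p = 0.967), and its 95% interval, -0.14 to 0.12, was the narrowest of the 9 genes. The sign also turned without PKI B (0.017), PKI C (0.021), inPKI B (0.00070) or inPKI C (0.019). SMO shares 129 exonic bases with the antisense gene AC011005.4, at a mean of 0.130 CPM.

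GPR161, the ciliary receptor that raises cAMP, had the smallest p of the 9 genes. It lies on the minus strand of chromosome 1 (168079543 to 168137667). It was at 18.9, 20.0 and 18.7 CPM in PKI A, B and C, against 17.3, 15.5 and 15.1 CPM in inPKI A, B and C. No inPKI library reached the lowest PKI library, with inPKI A nearest to PKI. These values rest on 428 to 600 reads per PKI library and 364 to 444 per inPKI library, and the spread was 3.54% of the mean in PKI and 7.51% in inPKI, where counting alone gives 4.46% and 4.95%. The means were 19.2 ± 0.680 CPM in PKI and 15.96 ± 1.199 CPM in inPKI (SD, n = 3 each), a ratio of 1.202.

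The log2 change of GPR161 was 0.25 ± 0.075 (SE), with a 95% interval of 0.092 to 0.41, and 690 of the tested genes had a larger one. Its limma p was 0.00441 unadjusted and 0.183 after adjustment over all genes, and it ranked 343 by p. It did not pass the adjusted threshold under any alternative that gave it an adjusted p, which ranged from 0.101 to 0.545. Without inPKI C, the library with more keratinocyte marker RNA, the log2 change was 0.21 (limma adjusted p = 0.364), and without PKI C it was 0.27. Over the 18 alternatives the log2 change was 0.18 to 0.31, the lowest of them with length and GC trends removed (limma adjusted p = 0.418). Leaving out a library could not turn its sign, since the groups did not overlap. In the authors' deposited table, turned to PKI over inPKI, GPR161 had a log2 change of 0.28 with a standard error of 0.24 and a p of 0.256.

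The GPR161 start window with the most GC boxes, GGGCGG or its reverse complement in capitals, is chr1:168136881-168137180 (GRCh38.p14, minus strand); it is printed because GPR161 stood apart most, and some of its boxes overlap one another. GC boxes bind SP-family factors and were in 10 of the 19 windows of these genes and in 45% of all windows.

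GPR161: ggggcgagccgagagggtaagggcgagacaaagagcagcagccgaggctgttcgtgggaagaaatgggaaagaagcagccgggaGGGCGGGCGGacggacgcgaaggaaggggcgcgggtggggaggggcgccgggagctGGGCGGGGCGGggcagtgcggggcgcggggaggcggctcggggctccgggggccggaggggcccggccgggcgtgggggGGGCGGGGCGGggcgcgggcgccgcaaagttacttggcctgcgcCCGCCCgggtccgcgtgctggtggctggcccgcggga

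The 3 genes whose log2(CPM + 1) followed GPR161 most closely over the 6 libraries, among 11060 genes with a mean of at least 5 CPM, were FKBP5, a co-chaperone of steroid receptors, POLR1A, the largest subunit of RNA polymerase I, and DCAF1, a receptor of a CUL4 ubiquitin ligase. Their Pearson correlations were 0.998, 0.996 and 0.989. In all 169 genes reached 0.9, and the points share libraries and scaling, so this is a description. FKBP5 was at 71.8, 73.4 and 71.4 CPM in PKI A, B and C, against 69.3, 67.0 and 66.3 CPM in inPKI A, B and C, a log2 change of 0.096 ± 0.051 (SE, limma adjusted p = 0.429).

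**Figure D2:**
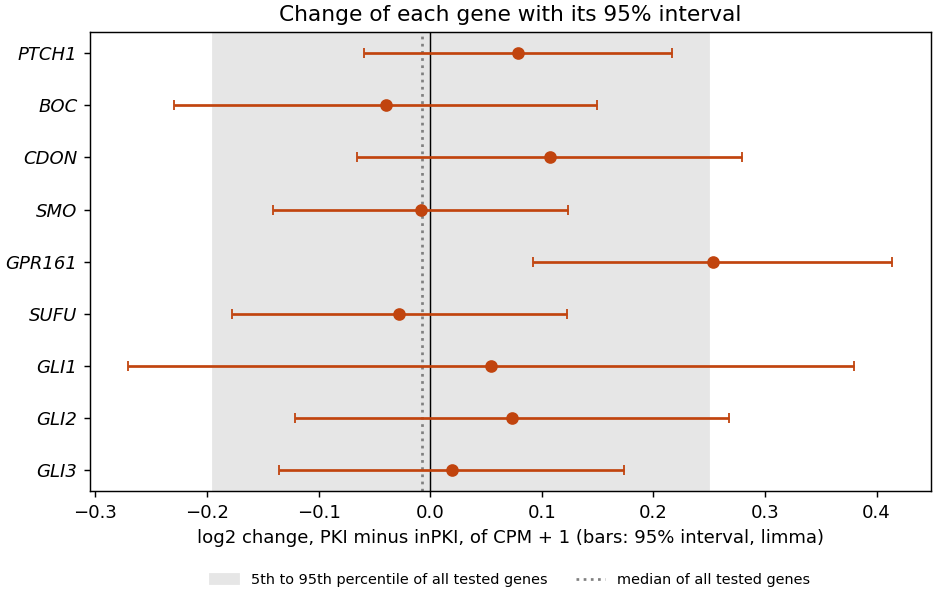
Log2 change of each of the 9 genes, PKI minus inPKI, on log2(CPM + 1), with its 95% interval from limma. The grey band spans the 5th to 95th percentile of all tested genes (-0.19 to 0.25). The interval of GPR161 lies above 0, and the other 8 intervals include 0. Intervals are for each gene alone and are not adjusted for the number of genes tested. After that adjustment GPR161 did not pass (limma adjusted p = 0.183).

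SUFU, which binds and retains GLI proteins, lies on the plus strand of chromosome 10 (102503987 to 102633535). It was at 34.7, 31.7 and 30.05 CPM in PKI A, B and C, against 34.6, 30.3 and 33.4 CPM in inPKI A, B and C. Library A was highest in both groups, at nearly the same level, and the groups overlapped. The log2 change was -0.027 ± 0.070 (SE, 95% interval -0.18 to 0.12, limma adjusted p = 0.889), and its sign turned without PKI C (0.019), without inPKI A (0.011) or with sample weights (0.010).

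GLI1, the activator that is itself a GLI target, was the lowest of the 9 genes. It lies on the plus strand of chromosome 12 (57460135 to 57472262). It was at 1.48, 2.16 and 1.57 CPM in PKI A, B and C, against 1.52, 1.97 and 1.41 CPM in inPKI A, B and C. Library B was the highest in both groups, and A and C lay close together in each. These values rest on 40, 65 and 36 reads in PKI A, B and C, and 39, 54 and 34 in inPKI A, B and C. The 95% Poisson interval, which covers counting error only, was 1.67 to 2.76 CPM in PKI B and 1.48 to 2.57 CPM in inPKI B, and each overlapped those of all other libraries.

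The mean of GLI1 was 1.74 ± 0.371 CPM in PKI and 1.63 ± 0.298 CPM in inPKI (SD, n = 3 each). The log2 change was 0.054 ± 0.15 (SE, limma adjusted p = 0.9001), with a 95% interval of -0.27 to 0.38, the widest of the 9. The added 1 shrinks changes at this level. By edgeR the log2 change was 0.099 and by DESeq2 0.098. The sign turned without PKI B (-0.054) or without inPKI C (-0.0074). GLI1 shares 8 exonic bases with ARHGAP9 on the other strand, at a mean of 0.0696 CPM.

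GLI2, the main activator in response to ligand, lies on the plus strand of chromosome 2 (120735623 to 120992653). It was at 13.1, 11.4 and 11.9 CPM in PKI A, B and C, against 10.7, 12.9 and 11.0 CPM in inPKI A, B and C. The groups overlapped, since inPKI B lay above PKI B and PKI C. The log2 change was 0.073 ± 0.091 (SE, 95% interval -0.12 to 0.27, limma adjusted p = 0.747); without inPKI B it was 0.15, without PKI A 0.022, and with length and GC trends removed 0.0070.

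GLI3, the source of the main repressor, lies on the minus strand of chromosome 7 (41960950 to 42237870). It was at 35.2, 30.2 and 31.7 CPM in PKI A, B and C, against 32.5, 29.3 and 33.9 CPM in inPKI A, B and C. Library B was the lowest in both groups. GLI3 had a log2 change of 0.019 ± 0.073 (SE, 95% interval -0.14 to 0.17, limma adjusted p = 0.932). Its sign turned without PKI A (-0.040), without inPKI B (-0.039) and with the length and GC trends removed (-0.057).

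**Figure D3:**
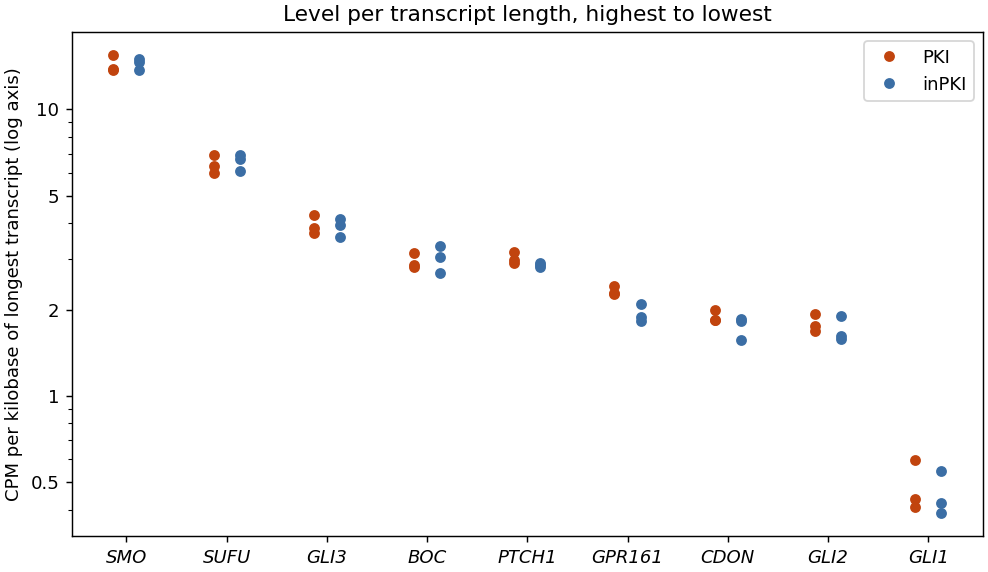
Level of each gene per kilobase of its longest transcript, CPM per kilobase on a log axis, genes ordered from highest to lowest, with 1 point per library (PKI left, inPKI right of each position). SMO is highest and GLI1 lowest in all 6 libraries.

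Levels between genes were compared per kilobase of the longest transcript. SMO was at 14.3 ± 0.977 CPM per kilobase in PKI and 14.4 ± 0.659 in inPKI, and SUFU at 6.43 ± 0.468 in PKI and 6.56 ± 0.439 in inPKI (SD, n = 3 each). GLI3 followed with a mean of 3.92 over the 6 libraries, then BOC with 2.98 and PTCH1 with 2.94, whose ranges overlapped and whose order differed among libraries. GPR161 had a mean of 2.13, CDON 1.82 and GLI2 1.74; the range of CDON overlapped those of both neighbours. GLI1 was at 0.481 ± 0.103 in PKI and 0.452 ± 0.0824 in inPKI. Shorter annotated transcripts exist for every one of these genes except SMO, such as 1839 bases for SUFU, 1983 for GPR161 and 451 for GLI3, and would raise these values.

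The GLI genes kept about the same proportions in both groups. Of the summed GLI level per kilobase, GLI3 made up 63.4% ± 1.48 in PKI and 64.4% ± 4.34 in inPKI (exact permutation p = 0.7), and GLI2 28.8% ± 0.535 in PKI and 28.1% ± 2.95 in inPKI (exact permutation p = 0.8). GLI1 made up 7.81% ± 2.00 in PKI and 7.49% ± 1.41 in inPKI (SD, n = 3 each, exact 2-sided permutation p = 0.8). The share of GLI1 was highest in library B of both groups, at 10.0% in PKI B and 9.07% in inPKI B, against 6.18% and 7.203% in the other PKI libraries and 7.07% and 6.34% in the other inPKI libraries. The ratio of PTCH1 to SMO per kilobase was 0.212 ± 0.0198 in PKI and 0.198 ± 0.00734 in inPKI (exact permutation p = 0.4). With 3 libraries against 3 this test cannot go below 0.1. Among the pairs of the 9 genes, GLI3 and SUFU varied most alike over the 6 libraries (Pearson r = 0.775) and GLI1 and GLI3 most oppositely (r = -0.859), as a description over libraries that share scaling.

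Other genes of the pathway were counted in lists from general knowledge. The ligand genes were near the detection limit. SHH had 3, 0 and 9 reads in PKI A, B and C, against 10, 5 and 3 in inPKI A, B and C. IHH had 4, 2 and 0 reads in PKI A, B and C, against 2, 3 and 1 in inPKI A, B and C. DHH had 1, 2 and 0 reads in PKI A, B and C, against 0, 0 and 1 in inPKI A, B and C. Of the 9 genes for ligands and their release 5 were tested, with a median log2 change of -0.024. In limma 0 passed as higher and 0 as lower, where 0.126% of all tested genes passed. At an unadjusted p below 0.05 there were 0, against 7.53% of all tested genes higher in PKI and 6.16% lower. With 5 genes, a count of 0 is no result about the ligands or their release. The smallest p were those of the secreted ligand-release factors SCUBE3, at 1.34 ± 0.246 CPM in PKI and 0.884 ± 0.0978 CPM in inPKI, and SCUBE1, at 2.85 ± 0.220 CPM in PKI and 2.29 ± 0.379 CPM in inPKI (SD, n = 3 each; limma adjusted p = 0.387 and 0.453). SCUBE3 was at 1 CPM or more in the 3 PKI libraries and in none of the inPKI libraries, so it met the filter only through the group where it was higher, and its p and its place in the list are no support for a difference.

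Of 12 tested surface binders and co-receptors other than the 9 genes, 0 passed in limma in either direction, with a median of -0.0017. At an unadjusted p below 0.05, 2 were higher in PKI and 0 lower, where 7.53% of all tested genes were higher and 6.16% lower. The 2 were EVC, a SMO partner at the base of the cilium, at 24.4 ± 1.48 CPM in PKI and 21.7 ± 0.547 CPM in inPKI, and the endocytic receptor LRP2, at 13.1 ± 1.86 CPM in PKI and 11.0 ± 0.648 CPM in inPKI (limma adjusted p = 0.320 and 0.323). EVC2, the partner of EVC, is listed at 0 in all 6 libraries. HHIP, a decoy receptor and GLI target, was at 4.87 ± 0.887 CPM in PKI and 5.01 ± 0.828 CPM in inPKI.

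Among 28 tested kinases, ubiquitin ligase parts and trafficking factors that act on GLI, SMO or GPR161, 0 passed in limma in either direction, with a median log2 change of -0.019. At an unadjusted p below 0.05, 1 was higher in PKI and 0 lower, a smaller share than the 7.53% and 6.16% of all tested genes. That was DYRK2, a kinase, at 54.8 ± 3.13 CPM in PKI and 49.3 ± 1.65 CPM in inPKI (limma adjusted p = 0.2998). The next smallest p was that of SPOP, the adaptor that hands GLI proteins to the CUL3 ligase, at 53.6 ± 4.34 CPM in PKI and 58.7 ± 1.88 CPM in inPKI (SD, n = 3 each, limma adjusted p = 0.381).

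Of 16 tested GLI target genes other than the 9, 0 passed in limma in either direction, where 0.126% of all tested genes passed. At an unadjusted p below 0.05 there were 0, against 7.53% of all tested genes higher in PKI and 6.16% lower. With so few genes, a count of 0 is no result about GLI targets. The log2 change was above 0 in 7 of them, where 47.4% of all tested genes were above 0, and the median was -0.0016. The smallest p were those of JAG2, a Notch ligand, at 37.8 ± 0.725 CPM in PKI and 35.2 ± 1.47 CPM in inPKI, and NKX6-1, a homeobox factor of the ventral neural tube, at 12.9 ± 0.849 CPM in PKI and 14.4 ± 1.35 CPM in inPKI (limma adjusted p = 0.452 and 0.488). In all 6 libraries FOXA2, another target, is listed at 0. HHIP counts in both this list and that of surface binders.

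Of 50 tested genes of the primary cilium, the organelle in which the pathway runs, 0 passed in limma in either direction. The log2 change was above 0 in 25, where 47.4% of all tested genes were above 0, and the median was 0.013. At an unadjusted p below 0.05, 4 were higher in PKI and 0 lower. For the higher ones this is near the 7.53% of all tested genes. The 0 lower stand against 6.16% of all tested genes, a difference that was not tested. Neither count is taken as a result about the cilium. The smallest p were those of DYNC2H1, the heavy chain of the ciliary dynein, at 100.6 ± 13.4 CPM in PKI and 84.7 ± 1.76 CPM in inPKI, and TTC21B, a subunit of the transport complex IFT-A, at 19.7 ± 0.789 CPM in PKI and 17.2 ± 0.301 CPM in inPKI (SD, n = 3 each, limma adjusted p = 0.2001 and 0.281). PKI C was the highest library for both, with DYNC2H1 at 116 CPM there and at 94.1 and 91.6 CPM in PKI A and B, against 83.6 to 86.7 CPM in inPKI. By edgeR and by DESeq2, 0 genes of these 5 lists passed an adjusted p of 0.05 where the tool gave one.

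**Figure D4:**
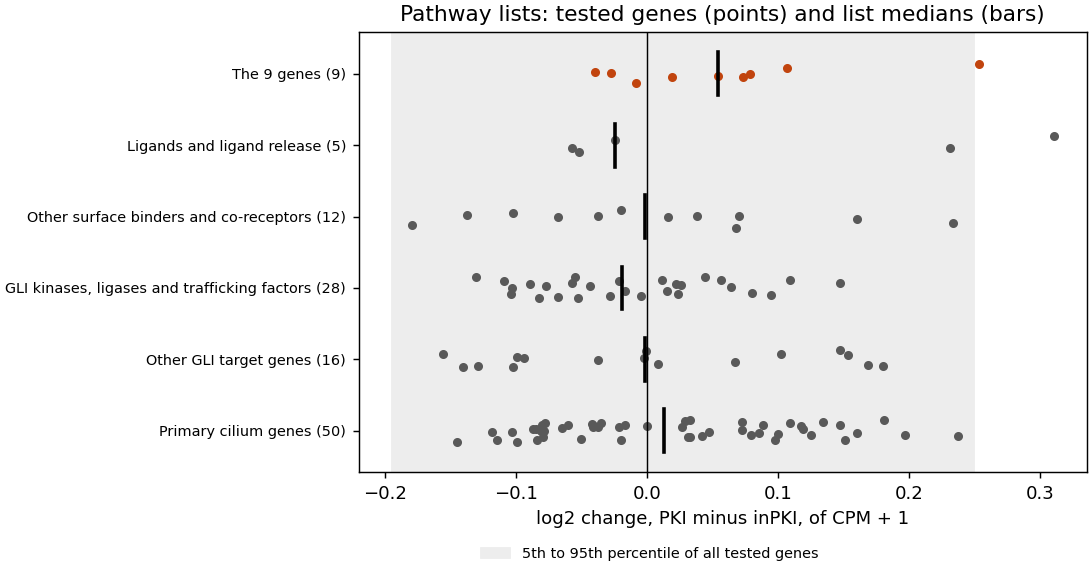
Log2 change, PKI minus inPKI, on log2(CPM + 1), of the tested genes in each pathway list (points, vertical scatter for display only) with the list median (bar); the number of genes is in parentheses. Medians run from -0.024 to 0.054; the grey band of the 5th to 95th percentile of all tested genes is a scale for the single points, not for the medians.

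**Figure D5:**
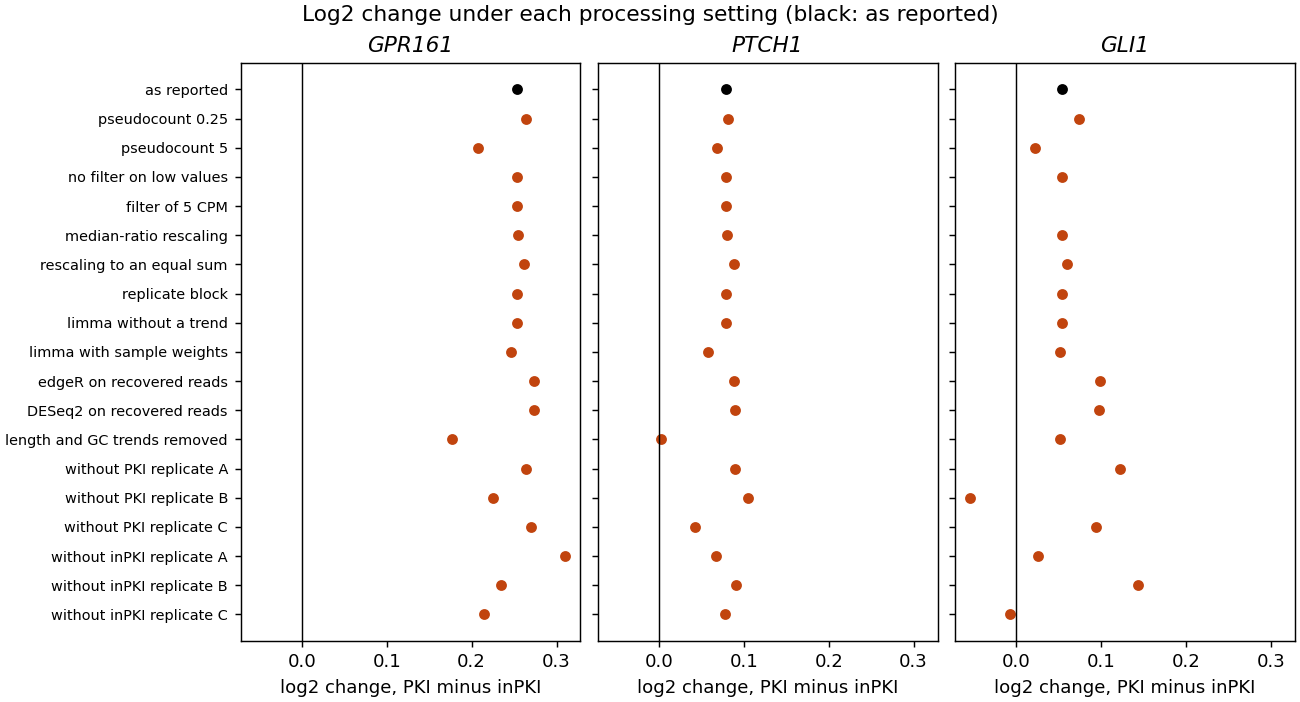
Log2 change, PKI minus inPKI, of GPR161, PTCH1 and GLI1 under the reported setting (black) and each alternative. GPR161 stays between 0.18 and 0.31, PTCH1 between 0.0022 and 0.11, and GLI1 between -0.054 and 0.14 with both signs; GLI1 has no value with the filter of 5 CPM.

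In the authors' deposited table, turned to PKI over inPKI, PTCH1 had a log2 change of 0.094 (standard error 0.12), GLI1 0.10 (0.39), GLI2 0.087 (0.16), GLI3 0.032 (0.15), CDON 0.12 (0.15), SMO 0.0041 (0.10), SUFU -0.017 (0.20) and BOC -0.036 (0.27). All 9 had the same adjusted p in the authors' deposited table, 0.99994. That table has values above 0 for genes with no read in these 6 libraries, so it does not rest on these values alone. Whether it includes further libraries was not tested.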

How the data were processed

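Gene expression of 6 HEK293 libraries, 3 PKI and 3 inPKI by their titles, was taken from the CPM values the authors deposited, scaled by TMM per the file's label. The submitters' processing notes name hg19, RSEM 1.3.0, STAR 2.5.2b, DESeq2 1.20.0 and cutadapt 1.14 without role or setting. All CPM values were whole multiples of 1 read (100% within 0.01 reads), worth 0.0333 to 0.0437 CPM. The authors' deposited comparison holds signal means, log2 changes, p-values and scores; its log2 sign, opposite to its signed fold in all 30960 genes, was turned to PKI over inPKI. Genes at 1 CPM or more in at least 3 libraries were tested on log2(CPM + 1) with limma 3.58.1 (R 4.3.3, trended, 2-sided, Benjamini-Hochberg over all genes, threshold 0.05). Limma was also run on simulated data, and how many changes it recovered there is not given here. Among 18 alternatives were edgeR 4.0.16 and DESeq2 1.42.0 on recovered reads. IDs matched GENCODE 29 (GRCh38) for 30795 genes, the source of coordinates and lengths. Promoter windows are RefSeq (GRCh38.p14), 250 bases before to 50 after each start. Members, lists and the naming rule (from each list the 2 smallest p, ligands by level, and the 3 genes most like GPR161) were chosen with earlier results of these data known. Intervals on counts cover counting error only.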

Additional observations from a re-analysis of the deposited data

How the results depend on the processing

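None of the 9 genes, and none of the genes in the 5 pathway lists, passed the adjusted threshold of 0.05 under any of the 18 alternatives that gave them an adjusted p; DESeq2 gave none to 6 of the 9, GPR161 among them, and GLI1 was not tested with the filter of 5 CPM. GPR161, PTCH1, GLI2 and CDON kept their sign in each. For GPR161 and PTCH1, whose groups did not overlap, leaving out a library could not turn it. Across all genes, limma called 18 (14 higher and 4 lower in PKI). The count was 4 with no filter on low values, 4 in limma without a trend, 11 with libraries rescaled to an equal sum, 11 by edgeR, 9 with length and GC trends removed, 144 with sample weights and 253 by DESeq2 (119 higher and 134 lower). Leaving out 1 library gave 9 (without inPKI B) to 121 (without PKI B). With the library letter as a replicate block 124 genes passed and GPR161 had a limma adjusted p of 0.116. Same-letter libraries correlated at 0.014 to 0.028 in their deviations, and each correlated best with its own letter. Whether the letters mark a shared batch was not tested, and the labels do not say. Sign changes near 0 occurred for SMO (0.00091 with an equal sum, 0.032 with sample weights, 0.00013 by edgeR), SUFU (0.010 with sample weights) and GLI3 (-0.057 with length and GC trends removed). Leaving out 1 library, the log2 change spanned -0.063 to 0.021 for SMO, -0.082 to 0.019 for SUFU, -0.040 to 0.065 for GLI3, -0.054 to 0.14 for GLI1, -0.12 to 0.029 for BOC, 0.034 to 0.15 for CDON, 0.022 to 0.15 for GLI2, 0.042 to 0.11 for PTCH1 and 0.21 to 0.31 for GPR161. The cause was not tested. Depth limits GLI1 most, where counting error alone is 15.1% of the mean in PKI and 15.7% in inPKI.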

Other observations

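The subunits of IFT-A, the complex that carries membrane receptors such as GPR161 into the cilium, were looked at after their values were seen. Of 6 tested subunits, 5 had a log2 change above 0 and 4 had all PKI libraries above all inPKI libraries, and none passed the limma threshold (lowest adjusted p = 0.281). Over all tested genes 47.4% were above 0 and 10.9% had PKI above without overlap, and among genes of 3613 to 9138 bases 62.7% and 14.9%. Of 10 tested subunits of IFT-B, the partner complex, 2 had a log2 change above 0 and 8 below. In IFT-B, 1 (IFT57) had all PKI libraries below all inPKI libraries, and none passed in limma (lowest adjusted p = 0.431). Over all tested genes 8.88% had PKI below without overlap, and among genes shorter than 3613 bases 33.0% were above 0. The complexes also differ in length: only IFT80 and IFT172 of IFT-B reach 3613 bases, and only IFT43 of IFT-A, at 848 bases, does not. The difference between the complexes was not tested. WDR19 was at 22.9, 24.5 and 24.0 CPM in PKI A, B and C, against 21.3, 21.9 and 22.3 CPM in inPKI A, B and C. WDR35 was at 46.8, 50.5 and 46.9 CPM in PKI A, B and C, against 45.2, 44.6 and 45.7 CPM in inPKI A, B and C. IFT122 was at 18.3, 20.2 and 17.8 CPM in PKI A, B and C, against 17.7, 17.5 and 17.6 CPM in inPKI A, B and C, and TTC21B also lay above in PKI. IFT140 averaged 24.9 CPM in PKI and 23.6 CPM in inPKI, with overlap, and IFT43 11.7 CPM in PKI and 12.0 CPM in inPKI. TULP3, the adaptor that links GPR161 to IFT-A, averaged 32.2 CPM in PKI and 34.2 CPM in inPKI, with overlap (limma adjusted p = 0.591). Transcripts of 3613 to 9138 bases had a median log2 change of 0.028, against -0.050 in shorter ones, and the part of length in these values was not tested.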
